A study of Rattus norvegicus with 3 samples.

Results

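The cyclic nucleotide phosphodiesterases described here are the products of Pde1a, Pde1c, Pde2a, Pde3a, Pde3b, Pde4a, Pde4b, Pde4d, Pde5a and Pde8a. Their signals were taken from a profile of the medullary thick ascending limb (mTAL), a stretch of nephron in the renal outer medulla that reabsorbs sodium chloride. A probe set, the group of short probes that reads one transcript on an Affymetrix array, was included when its only gene symbol in the platform annotation was 1 of these 10 genes. This gave 15 of the 20826 probe sets with 1 gene symbol. Pde4d had 3 probe sets, Pde1c, Pde4b and Pde8a had 2 each, and the other 6 genes had 1.

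The 3 arrays form 1 group, and no other tissue, genotype or treatment was profiled. The animals were male rats of the Sprague-Dawley stock aged 7 to 8 weeks. All rats had been given furosemide (1 mg), a loop diuretic, together with heparin (250 u) in the abdominal cavity 30 min before death, and the tubules were freed with collagenase (1 mg/ml) and hyaluronidase (0.5 mg/ml) and collected from 33.3% Percoll. No label says whether an array held the RNA of 1 rat or of a pool, so every SD and p-value measures the spread between these 3 preparations, which may be technical.

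Phosphodiesterases hydrolyse the second messengers cyclic AMP and cyclic GMP and so end their signals. The families differ in substrate and control: some cleave cyclic AMP only, some cyclic GMP only, some are switched on by calcium and calmodulin, and others are stimulated or inhibited by cyclic GMP. In the thick limb, hormones such as vasopressin, parathyroid hormone, calcitonin and glucagon raise cyclic AMP and with it salt transport, while nitric oxide raises cyclic GMP and lowers cyclic AMP through the enzyme encoded by Pde2a.

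A signal was judged against a cutoff set on each array, which was the 95th percentile over 43 genes typical of other tissues and lay at 653, 690 and 621 on replicates 1, 2 and 3. The log2 signal minus this cutoff was tested with limma, one-sided, and called above it at a Benjamini-Hochberg adjusted p under 0.05. Signals of different genes are not ranked against each other, because probe sets hybridise with different strength. The cutoff itself comes from probe sets of other genes. A call, or the lack of one, may therefore also reflect this strength. All 14 measured thick limb markers were called, among them Umod (57036 ± 8031), Egf (45193 ± 905) and Slc12a1 (39427 ± 2562), given as mean ± SD (n = 3). Among markers of other cells, those called numbered 7 of 12 endothelial, 4 of 6 thin limb, 4 of 18 proximal tubule, 3 of 10 principal cell, 2 of 14 leukocyte, 2 of 6 podocyte, and 1 of 14 smooth muscle, pericyte and fibroblast genes. Of 6 intercalated cell markers 0 were called by limma and 0 had an unadjusted p under 0.05. These counts are by gene, and 43.8% of all genes were called in this way. Aqp1 counts as called in both the thin limb and the proximal tubule list. The receptor list used further on shares Avpr2 with the principal cell list, and Ptger3 and Casr with the thick limb list. In such a tissue preparation, fewer cells of a type and less RNA per cell cannot be told apart.

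Signals of Pde1a and Pde8a lay above the cutoff, that of Pde2a lay at the edge of the test, and no other listed gene had a value above the cutoff on any array. Over probe sets, 2 of 15 were called, against 34.7% of all probe sets. With the probe set of highest mean signal standing for each gene, 3 of 10 genes were called, against 43.8% of all genes, and Pde2a was among them. The median of log2 signal minus cutoff was -2.04 over the 15 probe sets and -0.62 over all probe sets. By gene it was -0.66 for the 10 genes and 0.02 for all. Without replicate 2 the count of genes was 1, against 41.4% of all genes, and without replicate 3 it was 2, against 39.5%. Other cutoffs, each given with the share of all genes called, gave other counts in most cases. With Myh1, a muscle myosin gene of very high signal here, added to the other-tissue genes, 0 of the 10 genes were called by limma and 2 had an unadjusted p under 0.05, against 31.9% of all genes called. Without Cela1 and Krt10 in that list 3 were called, against 54.6%. With the 99th percentile as cutoff, 0 of the 10 genes were called by limma and 0 had an unadjusted p under 0.05, against 23.4% of all genes called. With the brightest TrpnX probe set as cutoff (TrpnX is a bacterial control for which no transcript is added), 8 genes were called, the exceptions being Pde3a and Pde5a, against 78.3% of all genes.

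**Figure D1:**
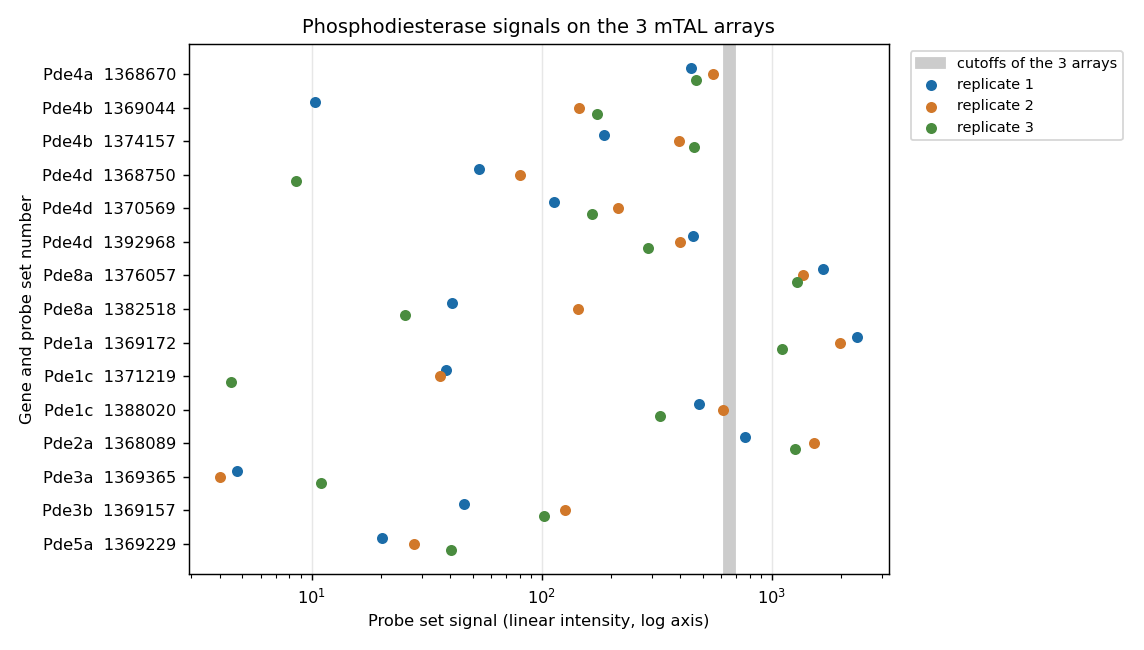
Signal of each of the 15 phosphodiesterase probe sets (rows, gene and probe set number) on replicates 1, 2 and 3 (coloured points), on a log axis, with the 3 array cutoffs (621 to 690) as a grey band. The probe sets of Pde1a and Pde2a and 1 of the 2 of Pde8a lie to the right of the band on all arrays, and the other 12 lie below their array's cutoff on each array.

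The genes of the enzymes specific for cyclic AMP are Pde4a, Pde4b, Pde4d and Pde8a. Pde8a encodes an enzyme of high affinity for cyclic AMP. Its probe set 1376057_at had signals of 1670, 1367 and 1282 on replicates 1, 2 and 3. All 3 values lay above the cutoff and within a 1.30-fold range. The log2 signal was 1.13 above the cutoff (95% interval 0.72 to 1.54, limma adjusted p = 0.00411, n = 3). Its second probe set, 1382518_at, had signals of 40.7, 144 and 25.5, far below the cutoff on every array. The calls of the Pde8a probe sets therefore differed, which was so for 1 of the 4 genes with several probe sets, and the gene's call rests on the brighter of them. When the median of its probe sets stood for Pde8a, its log2 value was -1.25 and the gene was not called.

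Pde4a, Pde4b and Pde4d encode the enzymes that the drug rolipram inhibits. Pde4a had signals of 444, 557 and 466 on replicates 1, 2 and 3. These values were close to each other, and all lay under the cutoff, by 0.43 on the log2 scale on average (95% interval -0.79 to -0.07, limma adjusted p = 1.00). With the 90th percentile as cutoff Pde4a joined Pde1a, Pde2a and Pde8a among the genes called (log2 signal minus cutoff 0.74, limma adjusted p = 0.0266 over probe sets).

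For Pde4b, probe set 1374157_at had signals of 186, 394 and 458, and 1369044_a_at, which reads several transcripts of the gene, had 10.4, 145 and 174. Both probe sets were lowest on replicate 1, and neither passed the cutoff on any array. For Pde4d, the brightest probe set, 1392968_at, had signals of 455, 400 and 288. The others were 1370569_at with 113, 214 and 164, and 1368750_a_at with 53.3, 80.1 and 8.52. The 3 Pde4d probe sets did not share an order of the arrays: replicate 1 was highest for the first and replicate 2 for the others. None of these 5 probe sets of Pde4b and Pde4d was called by limma (adjusted p = 1.00 for each), and their mean log2 distances from the cutoff ran from -4.30 to -0.81.

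Pde1a and Pde1c encode enzymes that calcium and calmodulin activate and that cleave both messengers. Pde1a had signals of 2352, 1984 and 1110 on replicates 1, 2 and 3. All 3 lay above the cutoff, with replicate 3 lowest. Its log2 signal was 1.40 above the cutoff (95% interval 0.67 to 2.13, limma adjusted p = 0.0115, n = 3). Without replicate 2 the mean was 1.34 and the adjusted p, from the other 2 arrays, was 0.0719. Pde1c probe set 1388020_a_at had signals of 482, 614 and 327, below the cutoff on each array but near it on replicate 2 (mean log2 distance -0.51, 95% interval -1.09 to 0.07). The other, 1371219_a_at, had 38.5, 36.0 and 4.47. Both Pde1c probe sets were lowest on replicate 3, as Pde1a was.

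Pde2a encodes the enzyme that cyclic GMP stimulates to cleave cyclic AMP, and endothelial cells are also known to make it. Its signals were 763, 1524 and 1257 on replicates 1, 2 and 3. All 3 lay above the cutoff, replicate 1 by little. The mean log2 distance was 0.80 (95% interval 0.09 to 1.51, n = 3). The limma adjusted p was 0.0526 over all probe sets, which misses the threshold, and 0.0407 over all genes, which passes it. By gene, with 2 arrays in each fit, the mean distance was 1.08 without replicate 1 (adjusted p = 0.0141), 0.62 without replicate 2 (0.158) and 0.68 without replicate 3 (0.156). The distance stayed above 0 in each of these fits, while the call was lost in the last 2 of them.

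Pde2a was lowest on replicate 1, and so were the median markers of endothelium and of most other cell types outside the thick limb. Deviations were taken on the log2 scale, as an array minus the mean of the other arrays, after centring each array on its median probe set. They were -0.78, 0.55 and 0.23 for Pde2a on replicates 1, 2 and 3, and the medians over 12 endothelial markers were -0.90, 0.53 and 0.41. The medians for smooth muscle, pericytes and fibroblasts, intercalated cells, leukocytes, proximal tubule and principal cells had the same signs on each array, from -2.43 to -0.26 on replicate 1, from 0.04 to 0.47 on replicate 2 and from 0.29 to 2.22 on replicate 3. Thin limb markers (-1.14, 1.20 and -0.06) were also lowest on replicate 1. The summed signal of the endothelial markers was 18277, 33414 and 28416, and 0 of the 12 endothelial markers were highest on replicate 1. The marker Pecam1 had signals of 800, 1484 and 1351, while Vwf had 15.0, 422 and 121 and was not called. The signs were not particular to Pde2a among the listed genes. Pde3b (-1.22, 0.79 and 0.43), Pde4d probe set 1370569_at (-0.65, 0.56 and 0.08) and both Pde4b probe sets had them too. The remaining listed probe sets did not. The part of any of these cell types in the signal of Pde2a or of these other genes was not tested.

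Pde3a and Pde3b encode enzymes that cleave cyclic AMP and that cyclic GMP inhibits. Pde3a, known from platelets, heart and smooth muscle, had signals of 4.75, 4.01 and 10.9, below the cutoff on each array (mean log2 distance -6.79, 95% interval -7.91 to -5.66). Pde3b, known from fat and liver cells, had signals of 46.1, 126 and 102, lowest on replicate 1, with a mean distance of -2.96. Pde5a encodes the enzyme specific for cyclic GMP that sildenafil inhibits, and it is abundant in smooth muscle. Its signals were 20.2, 27.7 and 40.3 (mean distance -4.53, 95% interval -5.29 to -3.77). Neither Pde3a nor Pde5a lay above the TrpnX control on average, at log2 distances of -3.09 and -0.84 from it. A signal under a cutoff does not show that a transcript is absent, since a weak probe set gives the same result.

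**Figure D2:**
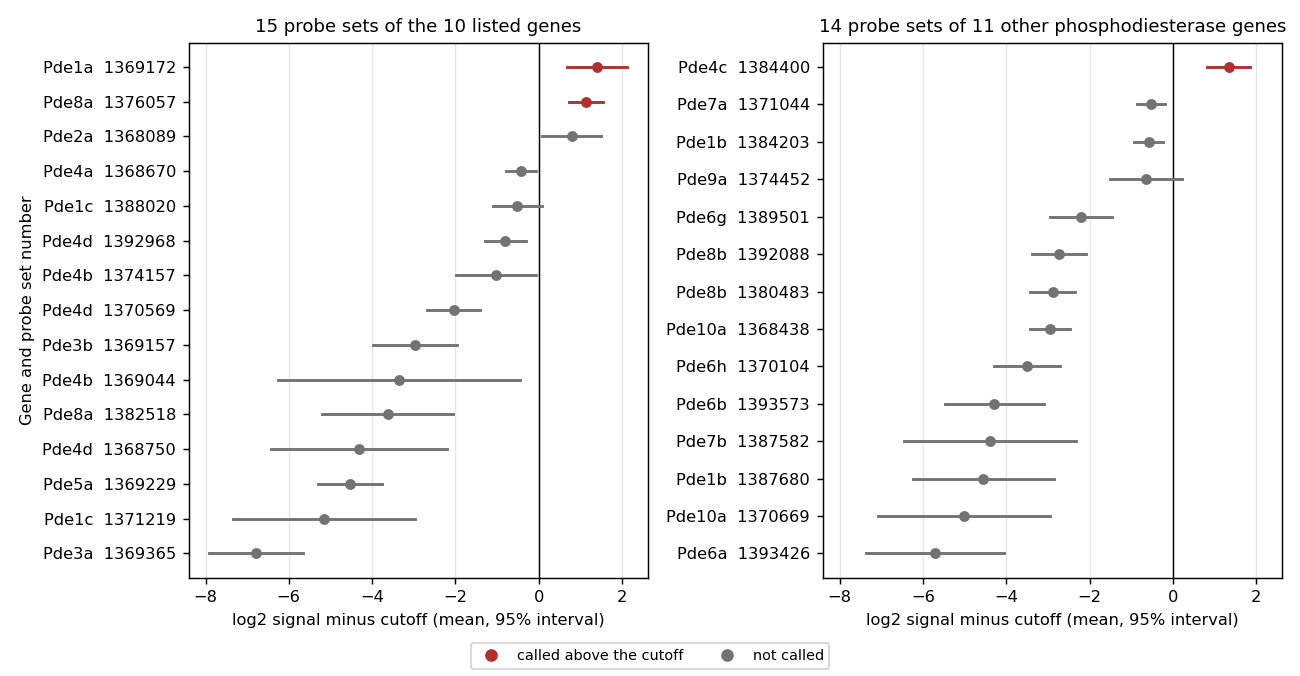
Mean log2 signal minus the array's cutoff (points) with its 95% interval from limma (lines) for the 15 probe sets of the 10 listed genes (left) and for 14 probe sets of 11 other phosphodiesterase genes (right); red marks an adjusted p under 0.05 over all probe sets. Pde1a (1.40), Pde8a (1.13) and Pde4c (1.34) are red, the interval of Pde2a starts at 0.09, and the other intervals have their centre below 0.

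Outside the listed genes, 11 of 13 further genes of cyclic nucleotide phosphodiesterases and their subunits were measured and 1 was called, against 43.8% of all genes. That was Pde4c, another gene of the rolipram-sensitive family, with signals of 1670, 1389 and 1960 on replicates 1, 2 and 3. All 3 lay above the cutoff (mean log2 distance 1.34, limma adjusted p = 0.00358 over genes). Leaving out any 1 array kept the gene-level adjusted p between 0.0106 and 0.0209. At the 99th percentile its log2 distance was 0.13 and it was not called (limma adjusted p = 0.636 over genes). With Myh1 in the other-tissue list the limma adjusted p was 0.0350 over genes and 0.0538 over probe sets, which misses the threshold. Pde7a, specific for cyclic AMP, had 481, 482 and 409 and was not called. Neither was the calmodulin-activated Pde1b, with 475, 457 and 384 by its brighter probe set and 48.3, 48.8 and 9.30 by the other. Pde9a, specific for cyclic GMP, had 318, 350 and 654, above the cutoff on replicate 3 alone. For Pde8b, Pde10a, Pde7b and the photoreceptor genes Pde6a, Pde6b, Pde6g and Pde6h the gene-level log2 distances ran from -5.71 for Pde6a to -2.20 for Pde6g, and 0 of these 7 were called by limma or had an unadjusted p under 0.05.

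Control regions of the listed genes were read from RefSeq promoter windows of the rat assembly GRCr8, each from 250 bases before to 50 after an annotated start. The 9 genes with such windows had 18 of them. The sequence TGACG, the core of the cyclic AMP response element, was searched on both strands, where it reads CGTCA on the other. It stood in 5 of the 18 windows and in 21.2% of all 33469 windows. The 5 belonged to Pde4a, Pde4d and Pde8a, and other windows of Pde4a and Pde4d held no match. The full palindrome TGACGTCA, which holds this core on both strands, stood in 0 of the 18 and in 1.83% of all. The 6 matches are shown because these genes encode enzymes that remove cyclic AMP, each in 30 bases written 5′ to 3′ on the gene's strand, with the match in capitals, which begins at positions from -231 to -11 relative to the start, and the annotated starts of a gene numbered along the chromosome.
Pde8a, chr1:144575371-144575400, plus strand: ggccgcgcttccTGACGcgagacccgcgct
Pde4a start 1, chr8:27966964-27966993, plus strand: agcgtcggcgcaTGACGttcgtccttagca
Pde4a start 3, chr8:27999383-27999412, plus strand: ggcacagctcgaCGTCAggctggggagggg
Pde4d start 3, chr2:42592506-42592535, plus strand: gtctcccgagctCGTCAagtgatctttggc
Pde4d start 3, chr2:42592543-42592572, plus strand: gggggaggagggTGACGttgaacaggcttc
Pde4d start 4, chr2:42767586-42767615, plus strand: ggaaaatattaaTGACGgaagagctgcaaa

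The windows of Pde1a and Pde2a held no match. The 250 bases before the first annotated start of Pde2a (chr1:165235373-165235622, plus strand) are shown as the example without one.
Pde2a start 1: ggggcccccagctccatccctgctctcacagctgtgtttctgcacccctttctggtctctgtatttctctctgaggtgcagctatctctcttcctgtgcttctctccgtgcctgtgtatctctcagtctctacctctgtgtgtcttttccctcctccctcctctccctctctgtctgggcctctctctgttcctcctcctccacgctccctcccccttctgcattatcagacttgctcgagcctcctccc
Of the genes called, Pde8a had the TGACG core, and of those not called Pde4a and Pde4d did. A match is a run of letters, not a measured binding site.

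Genes that make, sense or act on the 2 messengers were counted by the same gene-level test, in which 43.8% of all genes were called. The genes named were picked from each list by signal, up to 3 called genes and 1 that was not called. They are given with their mean signal ± SD (n = 3) as examples, and their order carries no information on transcript level.

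Of 8 adenylyl cyclases, which make cyclic AMP, 1 was called. This was Adcy6, a form that calcium inhibits, with signals of 3963, 4695 and 4218 on replicates 1, 2 and 3, while Adcy8 (22.4 ± 27.9) was not called. Of 12 guanylyl cyclases and natriuretic peptide receptors, which make cyclic GMP or bind its peptide signals, 0 were called by limma and 0 had an unadjusted p under 0.05. Gucy1a1, a subunit of the nitric oxide receptor, had 124, 942 and 363, above the cutoff on replicate 2 alone, and was named after its values were seen. Gucy2f (14.8 ± 15.8) lay below the cutoff on each array. Both lists of cyclases thus had few or no genes called.

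Upstream of the cyclases, 3 of 6 G protein alpha subunits were called. They were Gnas, which stimulates adenylyl cyclase, with signals of 27433, 28059 and 22549, and Gnai2 (2294.5 ± 340) and Gnai1 (1600.1 ± 492), which inhibit it. Gnao1 (65.7 ± 31.6) was not called. Of 11 receptors that act on adenylyl cyclase in this segment 5 were called. Ptger3 (13250 ± 1258), a receptor of prostaglandin E2, and Casr (9308 ± 3004), the calcium-sensing receptor, lower cyclic AMP, and Gcgr (3835 ± 721), the glucagon receptor, raises it. The receptor gene Vipr1 (112 ± 60.6) was not called.

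Downstream, 6 of 9 genes of protein kinase A, the main target of cyclic AMP, were called. The regulatory subunit Prkar1a had signals of 10123, 9843 and 9789, the catalytic subunit Prkacb had 5034 ± 203 and the inhibitor Pkig had 4857 ± 364. Another inhibitor, Pkib (34.9 ± 34.0), was not called. Of 13 anchoring proteins, which hold the kinase and often phosphodiesterases near their targets, 8 were called, among them Akap1 (3946 ± 334), Akap9 (3276 ± 223) and Akap13 (2825 ± 213). The testis gene Akap4 (4.95 ± 1.01) was not called. Of 14 other effectors, such as cyclic nucleotide gated channels and exchange factors, 1 was called, the channel gene Hcn2 (1194, 1310 and 1109), and Bves (14.8 ± 14.6) was not called.

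Of 11 transcription factors and coactivators of the cyclic AMP response 6 were called, among them Atf1 (5839 ± 319) and the coactivator Ep300 (5383 ± 437). Nr4a1, an immediate early gene that cyclic AMP induces, had signals of 1430, 2839 and 5416 on replicates 1, 2 and 3, all above the cutoff and spread over a wide range. Its relative Nr4a3 (248 ± 53.1) was not called.

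**Figure D3:**
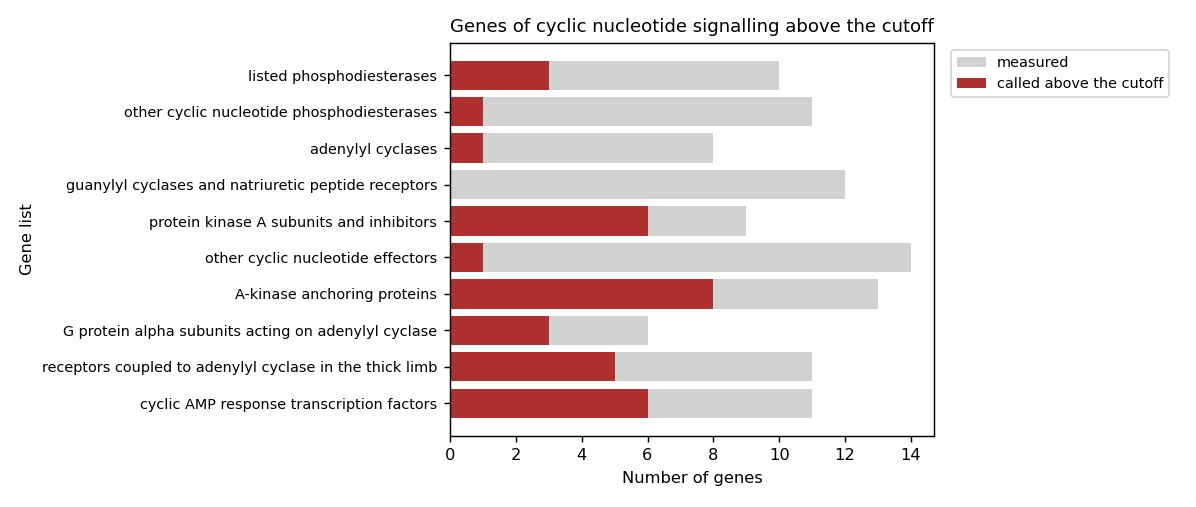
Number of genes measured (grey) and called above the cutoff (red) in the 10 listed phosphodiesterases and in 9 other gene lists of cyclic nucleotide signalling. The counts called are 3 of 10 for the listed phosphodiesterases, 1 of 8 for adenylyl cyclases, 0 of 12 for guanylyl cyclases and natriuretic peptide receptors and 6 of 9 for protein kinase A, beside 43.8% of all genes.

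The listed probe sets varied between arrays. The median of their SDs on the log2 scale was 0.58, against 0.30 for all probe sets. These medians are at unlike signal levels, since the listed probe sets lay lower (median log2 distance -2.04, against -0.62). Against the median SD of probe sets with a mean within 0.5 log2 units of their own (0.18 to 1.33), 13 of 15 were higher. Leaving out replicate 1 or replicate 3 lowered that count to 8. Pde1a, with an SD of 0.58, exceeded 96.6% of the 2645 probe sets of like level. Pde2a (0.46) exceeded 91.7% of 2820, and Pde4b probe set 1369044_a_at (2.23) exceeded 98.5% of 1810. Pde4a (0.12) and Pde5a (0.48) were among the steadiest, above 13.9% and 8.31% of probe sets of their level.

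No array was high for all members. The highest array was replicate 1 for 4 probe sets, replicate 2 for 7 and replicate 3 for 4. Pde1a deviated by 0.74, 0.21 and -0.95 on replicates 1, 2 and 3, while the median thick limb marker deviated by 0.18, -0.11 and -0.04. Single thick limb markers differed from that median. Of the 14, 8 had their highest signal on replicate 1, 2 on replicate 2 and 4 on replicate 3. Kcnj1 had signals of 21634, 17472 and 10300, in the same order as Pde1a. On the same arrays control probe sets at the 3′ end exceeded those at the 5′ end, a difference that is large in degraded RNA. On the log2 scale it was 1.48, 1.18 and 1.95 for Actb and 0.51, 0.43 and 0.60 for Gapdh. Markers of proximal tubule deviated by -2.43, 0.23 and 2.22. Pde4b probe set 1374157_at deviated by -1.11, 0.35 and 0.77, and the medians of smooth muscle, pericyte and fibroblast (-1.64, 0.43 and 0.67), intercalated cell (-1.02, 0.47 and 0.50), endothelial, principal cell (-1.11, 0.04 and 1.26) and leukocyte markers (-0.26, 0.16 and 0.29) had these signs too. The part of RNA quality and of other cells in these differences was not tested, and since each array is 1 preparation they have no replicate test.

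**Figure D4:**
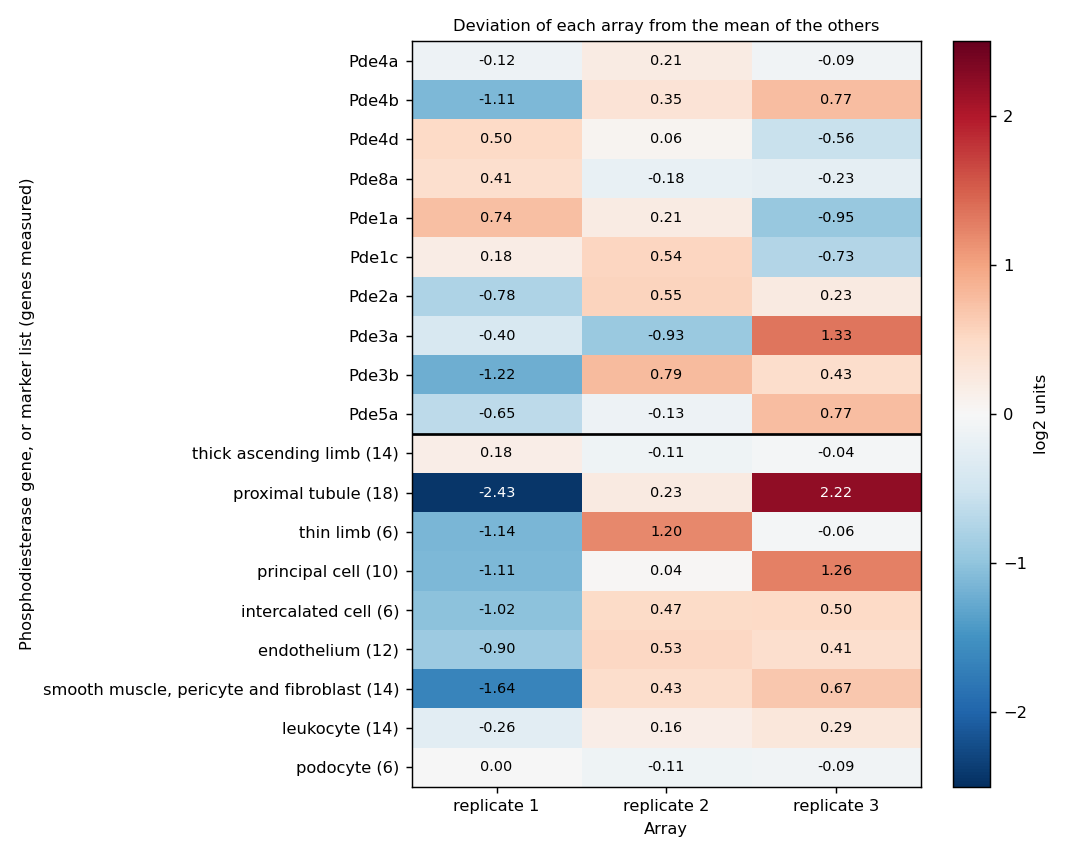
Deviation of each array from the mean of the other arrays (log2 units, each array centred on its median probe set; red higher, blue lower) for the brightest probe set of each listed gene and, below the line, the median over the markers of each cell type, with the number of markers measured. Pde2a (-0.78, 0.55, 0.23) has the signs of endothelium (-0.90, 0.53, 0.41) and also of the smooth muscle, intercalated cell, leukocyte, proximal tubule and principal cell rows. The Pde3b and Pde4b rows have these signs too. Pde1a runs from 0.74 on replicate 1 to -0.95 on replicate 3.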

How the data were processed

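Total RNA of 3 mTAL preparations was hybridised to Affymetrix arrays as biotin-labelled cRNA, per the labels' protocols. The authors deposited 1 linear intensity per probe set and array, and of the summary method and any normalization nothing is stated: they are not given in the sources used here. Without the lowest and highest 2% of values each array had a mean signal of 1000.3, so log2 was taken with no pseudocount and no scaling. Genes come from the platform annotation. Of 31099 probe sets 57 were controls, 20826 had 1 symbol, 436 several and 9780 none. The 1-symbol probe sets covered 14217 genes, and the gene identifiers of 20758 were found in RefSeq (GRCr8), all with the same symbol.

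The cutoff used 43 measured of 46 genes of other tissues, a list made for this work. It lay just under Mbp (699 ± 50.8), with Krt10 (1210 ± 125) and Cela1 (1800.1 ± 324) above it, so few genes decide it. limma 3.58.1 (lmFit and eBayes, R 4.3.3) was fitted to all probe sets and to all genes, and checked on simulated data. Figures were drawn with matplotlib 3.10.9. The number of arrays limits the precision. Named are all probe sets of the listed genes and all other measured genes of cyclic nucleotide phosphodiesterases and their subunits. Of other pathway lists, the 3 called genes with the highest signal and the gene with the lowest are named. Gucy1a1, Kcnj1, Pecam1 and Vwf were named after their values were seen. Members, gene lists and tests were chosen with earlier results of these data known. Alternatives covered scaling, pseudocount, cutoff, spread estimate, filter, probe set choice and leaving out each array.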

Additional observations from a re-analysis of the deposited data

How the results depend on the processing

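Calls depended mainly on the cutoff. Of the listed 15 probe sets and 10 genes, 2 and 3 were called with the main cutoff (34.7% and 43.8% of all), 4 and 4 at the 90th percentile (48.8% and 57.2%), 9 and 8 at TrpnX (74.2% and 78.3%), and 0 and 0 by limma at the 99th percentile (16.3% and 23.4%; 0 with an unadjusted p under 0.05). The next 2 cutoffs were chosen after seeing the data. With Myh1 (42933 ± 2949) added to the list 0 and 0 were called by limma (23.5% and 31.9%; 2 with an unadjusted p under 0.05), and without Cela1 and Krt10 3 and 3 (45.9% and 54.6%), Pde2a among the probe sets (limma adjusted p = 0.00629). Of 95 pathway genes 31 were called, then 16 at the 99th percentile and 67 at TrpnX, as the share of all genes went from 43.8% to 23.4% and 78.3%. Listed genes whose probe sets differed in call numbered 1, then 4 at TrpnX. At the 99th percentile and with Myh1 none could differ, since 0 listed probe sets were called. With the lowest 25% of probe sets left out the count was 0, but the dimmer Pde8a probe set was among those removed. At the 99th percentile the log2 distance was -0.080 for Pde8a, by gene and by its brighter probe set, and -0.41 for Pde2a. With the lowest probe set standing for a gene 1 listed gene was called, against 29.3% of all genes, and Pde8a lay at -3.62. With the median 2 were called, against 34.9% of all genes, and Pde8a lay at -1.25.

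Leaving out each array gave 1 to 3 listed probe sets called (30.3% to 31.2% of all) and 1 to 3 listed genes (39.5% to 41.4% of all). It gave 29 to 31 pathway genes called, and 8 to 11 listed probe sets with an SD above that of like probe sets. Quantile normalization and a robust fit changed no call of a listed probe set or gene. A common 75th percentile could change none, since a shift of a whole array cancels against that array's own cutoff. A pseudocount of 16, a trended fit and the filter brought Pde2a past the threshold over probe sets (limma adjusted p = 0.0374, 0.00692 and 0.0189). The cutoff without Myh1 and the own other-tissue list gave no separate value, since the list in use was that list and held no Myh1. No paired analysis was possible because the 3 arrays form 1 group.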

Other observations

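Symbols that begin with Pde but encode no cyclic nucleotide phosphodiesterase were also on the array, and were chosen after their values were seen. Pde6d, a carrier of prenylated proteins, had signals of 2427, 2065 and 1794 on replicates 1, 2 and 3, all above the cutoff (mean log2 distance 1.67, limma adjusted p = 0.00142 over probe sets). Pde4dip, an anchoring protein of the Golgi and centrosome, had 1189, 1106 and 1110 with one probe set (0.79, limma adjusted p = 0.0071) and 310, 259 and 176 with the other, which was not called. Pde12, a mitochondrial enzyme that trims RNA, had 191, 146 and 223, below the cutoff. The 3 probe sets that the annotation gives to both Pde11a and Cyct had signals from 1.84 to 63.9, and they entered no test.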
